A study of Mus musculus with 5 samples.

Results

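A set of 9 transcription factors of the eye field and of the epithelium that lines the ciliary body, iris and retina was described here: Six3, Six6, Pax6, Rax, Lhx2, Otx2, Sox2, Sox3 and Zic1. They were taken by symbol from the table of counts per gene, in which each of the 9 members matched 1 of 56941 Ensembl identifiers. RNA had been extracted from the iridocorneal angle, the ring of tissue between iris and cornea through which aqueous humor drains, of untreated mice aged 12 months, labelled as of both sexes. DBA/2J is an inbred strain with a loss-of-function Gpnmb allele that comes down with pigmentary glaucoma. DBA/2J-Gpnmb+/SjJ mice, called Gpnmb+ below, are the control strain with a functional Gpnmb allele, and by the study's account both strains carry the b allele of Tyrp1. There were 3 DBA/2J pools and 2 Gpnmb+ pools, with 3 mice described per pool, although the library names list 3 animals per pool for DBA/2J and 2 per pool for Gpnmb+. The total counts ran from 43900661 to 49837758 per pool, and Gpnmb, which checks the labels, fell by 5.67 on the log2 scale in DBA/2J. According to the labels the iris and ciliary body had been removed, and the study's methods state that some remnants of both stayed attached.

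The RNA of sex-linked genes went against the label of both sexes in Gpnmb+. The Y-linked genes Ddx3y, Eif2s3y, Kdm5d and Uty had 325 to 4168 counts in each DBA/2J pool and 0 to 4 in each Gpnmb+ pool. Xist, the RNA of the inactive X chromosome in females, had 596, 0 and 2417 counts in DBA/2J, compared with 7843 and 9152 in Gpnmb+. Each of these genes separated the genotypes, so that sex and genotype cannot be told apart for any member.

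The eye field is the patch of anterior neural plate that gives rise to both eyes, and its cells coexpress Six3, Six6, Pax6, Rax and Lhx2. The optic cup that forms from it yields the neural retina, the retinal pigment epithelium and, at its rim, the double-layered epithelium of the ciliary body and iris, in which several of these factors stay on in the adult. SIX3 and SIX6 bind Groucho corepressors and Eya coactivators, LHX2 works through LIM domain cofactors, and OTX2 acts in retinal pigment epithelium and in photoreceptors. SOX2 and SOX3 are closely related HMG box factors of neural progenitors, and the ZIC proteins are zinc finger factors of the neural tube and eye.

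Sequence before the annotated start is shown for 4 members: Six6, the member called higher, Sox2 and Sox3, the related pair of which Sox3 had the widest difference, and Otx2, which was not higher in DBA/2J. A window of 250 bases before the start of the canonical GENCODE transcript was read from GRCm39 on the strand of the gene, 5′ to 3′. Stretches that the annotation gives to the untranslated exons of any coding transcript were left out of the print. They fell in the window of Six6, where the leader of 4930447C04Rik on the opposite strand lies, and in that of Otx2, where a longer Otx2 transcript starts upstream. Capitals mark matches to 5 short motifs, each searched on both strands. The TATA box was spelled TATAAA and the GC box of Sp1-type factors GGGCGG. The core bound by many homeodomain proteins was spelled TAATTA, which reads the same on both strands. An OTX-type element was spelled GGATTA, and the element of SOX proteins was spelled CATTGT. No printed match overlapped one of another motif. The print for Six6 covers 80 bases at chr12:72986416-72986495 on the plus strand, ending 170 bases before the start, and that for Otx2 covers 156 bases at chr14:48905102-48905257 on the minus strand, ending 94 bases before the start. Sox2 at chr3:34704304-34704553 on the plus strand and Sox3 at chrX:59937037-59937286 on the minus strand are printed up to the start, with the GC box of Sox2 on the reverse strand.
Six6: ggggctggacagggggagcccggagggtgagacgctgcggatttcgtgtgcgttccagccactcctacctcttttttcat
Sox2: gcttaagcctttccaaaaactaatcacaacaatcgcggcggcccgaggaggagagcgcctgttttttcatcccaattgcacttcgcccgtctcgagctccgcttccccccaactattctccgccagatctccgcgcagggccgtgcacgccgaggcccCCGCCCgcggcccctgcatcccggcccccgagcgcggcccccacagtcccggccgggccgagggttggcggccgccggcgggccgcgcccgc
Sox3: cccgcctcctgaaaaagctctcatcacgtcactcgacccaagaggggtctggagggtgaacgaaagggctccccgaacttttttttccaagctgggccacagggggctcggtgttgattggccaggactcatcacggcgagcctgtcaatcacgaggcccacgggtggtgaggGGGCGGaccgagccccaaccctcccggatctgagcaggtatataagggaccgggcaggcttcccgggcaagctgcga
Otx2: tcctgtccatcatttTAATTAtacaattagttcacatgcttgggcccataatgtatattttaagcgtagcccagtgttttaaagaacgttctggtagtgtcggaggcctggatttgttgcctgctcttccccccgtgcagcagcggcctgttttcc

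The share of G and C in the whole windows was 63.2% before Six6, 70.8% before Sox2, 62.4% before Sox3, 66.0% before Zic1, 61.6% before Lhx2, 60.4% before Rax and 60.8% before Pax6. It was 48.8% before Six3 and 44.8% before Otx2, against a median of 53.2% over 21770 protein-coding genes. A GC box was found before Six6, 21 bases from its start and outside the bases printed, before Sox2 at 92 bases, before Sox3 at 77 bases, and before Zic1 at 212 and 152 bases. Over the 9 members, 5 windows held a GC box, those of Six6, Lhx2, Sox2, Sox3 and Zic1, against 36.3% of all windows. The homeodomain core was found before Otx2 alone among the members, 235 bases from the start, and in 5.18% of all windows. No member's window held the TATA box, the OTX-type or the SOX-type element in the exact spelling searched. Those spellings were found in 11.9%, 7.0% and 9.41% of all windows. Other spellings were not searched, and the Sox3 print holds a variant of the TATA box near its end. The absence of a match therefore does not show that a window lacks such an element. These matches describe letters only, and no binding was measured.

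In 7 of the 9 members each DBA/2J pool stood above both Gpnmb+ pools: Six3, Six6, Rax, Lhx2, Sox2, Sox3 and Zic1. Pax6 and Otx2 overlapped between the genotypes. That ordering, each DBA/2J pool above both Gpnmb+ pools, was found for 17.3% of all 19713 genes tested, and the opposite one for 17.2%. Six6 alone was called higher by edgeR's quasi-likelihood test with an adjusted p-value up to 0.05 and at least a 1.5-fold change, which called 0.502% of all genes higher, and no member was called lower by edgeR, by DESeq2 (0 members) or before adjustment (0 members), against 0.294%, 2.15% and 4.48% of all genes. With p up to 0.05 before adjustment and 1.5-fold, 7 of 9 members were higher, against 4.2% of all genes, and DESeq2, the tool of the study, called those 7 higher with an adjusted p-value up to 0.05, against 3.06% of genes with an adjusted p-value. The median log2 fold change, DBA/2J over Gpnmb+, was 1.04 over the 9 members and -0.02 over all genes. In bulk tissue, fewer cells of a type and less RNA per cell cannot be told apart.

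**Figure D1:**
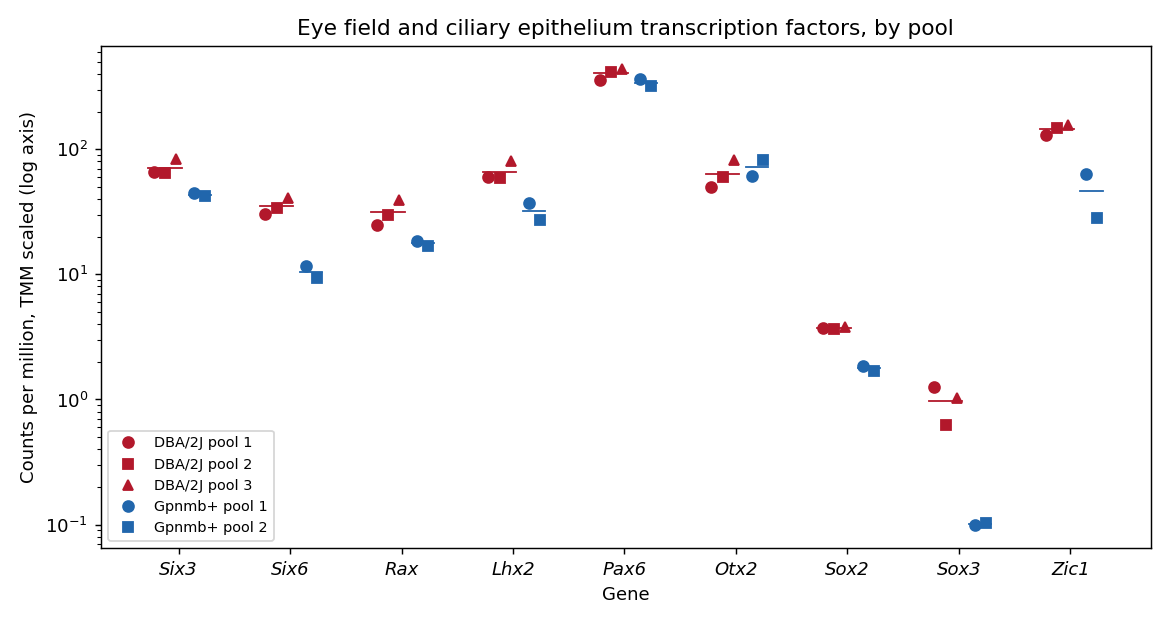
Level of each of the 9 members in each pool, in CPM (counts scaled to library size by TMM) on a log axis; red symbols are the 3 DBA/2J pools, blue symbols the 2 Gpnmb+ pools, and lines the group means. The red symbols lie above the blue ones for 7 members and overlap them for Pax6 and Otx2.

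Six6, a sine oculis-type homeodomain factor needed for growth of retinal and pituitary progenitors, was represented by 1350, 1461 and 1830 counts in DBA/2J pools 1 to 3, compared with 594 and 454 in Gpnmb+ pools 1 and 2. All 3 DBA/2J pools were high and both Gpnmb+ pools low. Its level was 35.1 ± 5.41 CPM (counts scaled to library size; SD, n = 3) in DBA/2J and 10.5 ± 1.72 CPM (SD, n = 2) in Gpnmb+. This gave a log2 fold change of 1.74 (SE 0.18, adjusted p = 0.0265 by edgeR). The call did not hold without DBA/2J pool 1, 2 or 3 or without Gpnmb+ pool 2, where edgeR's adjusted p-values were 0.0885, 0.0973, 0.0757 and 0.116, although the log2 fold change stayed between 1.59 and 1.92 over all alternatives. Over all genes, those 4 fits called 6, 1, 17 and 2 genes, against 157 with all 5 pools.

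Six3, the paralog of Six6 that represses Wnt signaling in the anterior neural plate, showed a smaller difference. It had 2923, 2781 and 3697 counts in DBA/2J, compared with 2261 and 2055 in Gpnmb+. The 2 Gpnmb+ pools lay close together and DBA/2J pool 3 was the highest of the series. Its log2 fold change was 0.72 (SE 0.13), and its adjusted p-value of 0.0820 missed the threshold in edgeR. The gene lies on chromosome 17 from 85920640 to 85936730.

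Rax, a homeobox gene without which the eye does not form, had 1108, 1281 and 1757 counts in DBA/2J, compared with 936 and 828 in Gpnmb+. DBA/2J pool 3 was the highest, as for Six3, and DBA/2J pool 1 lay nearest to the Gpnmb+ pools without overlap. The log2 fold change was 0.83 (SE 0.20, adjusted p = 0.137 by edgeR), with 31.4 ± 7.35 CPM (SD, n = 3) against 17.7 ± 1.07 CPM (SD, n = 2).

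Lhx2, a LIM homeodomain factor that sets the fate of the optic vesicle, had 2658, 2509 and 3596 counts in DBA/2J, compared with 1870 and 1340 in Gpnmb+. The groups did not overlap, and Gpnmb+ pool 2 was the lowest of all. This gave a log2 fold change of 1.04 (SE 0.20, adjusted p = 0.0858 by edgeR). The gene lies on chromosome 2 from 38229293 to 38259759.

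Pax6, the paired box factor required in lens, cornea, iris and retina, was the member with the most counts. It had 15773, 17855 and 19606 counts in DBA/2J, compared with 18430 and 15626 in Gpnmb+, and the pools of the genotypes interleaved. Its log2 fold change was 0.24 (SE 0.13, adjusted p = 0.413 by edgeR). Pax6 is also expressed in the corneal and conjunctival epithelium, whose keratins Krt5 and Krt13 were abundant in these pools, at means of 3118 and 1045 CPM in DBA/2J and 3421 and 907 CPM in Gpnmb+. Krt12, the keratin of the corneal epithelium, named after its values were seen, was uneven, at 254, 116 and 9.44 CPM in DBA/2J and 1702 and 554 CPM in Gpnmb+ (log2 fold change -3.16, adjusted p = 0.27 by edgeR). Pax6 lies on chromosome 2 from 105499234 to 105530952.

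Otx2, the homeobox gene that specifies retinal pigment epithelium and photoreceptors, had 2217, 2595 and 3625 counts in DBA/2J, compared with 3106 and 4021 in Gpnmb+. Gpnmb+ pool 2 was the highest and DBA/2J pool 1 the lowest. Scaled to library size, DBA/2J pool 3 stood at 81.3 CPM, above the 61.2 CPM of Gpnmb+ pool 1, so that the groups overlapped. The log2 fold change was -0.17 (SE 0.23, adjusted p = 0.772 by edgeR), and it turned to 0.062 without Gpnmb+ pool 2.

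Sox2, required in retinal progenitors, was low but even within each genotype. It had 165, 156 and 169 counts in DBA/2J, compared with 94 and 83 in Gpnmb+. This gave a log2 fold change of 1.06 (SE 0.19, adjusted p = 0.0721 by edgeR), from 3.71 ± 0.0772 CPM (SD, n = 3) against 1.77 ± 0.110 CPM (SD, n = 2). The gene is a single exon on chromosome 3 from 34704554 to 34706610.

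Sox3, an X-linked gene, was the rarest member and had the widest difference. It had 56, 27 and 46 counts in DBA/2J and 5 counts in each Gpnmb+ pool. Its log2 fold change was 3.24 (SE 0.48, adjusted p = 0.0516 by edgeR), which missed the threshold of 0.05. Its fold rests on 10 counts over both Gpnmb+ pools.

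Zic1, a zinc finger factor of the dorsal neural tube and the optic cup rim, had 5780, 6396 and 6946 counts in DBA/2J, compared with 3230 and 1387 in Gpnmb+. All DBA/2J pools were higher, and the gap between both Gpnmb+ pools was wider than for any other member, at 1.17 on the log2 scale. The log2 fold change was 1.65 (SE 0.34), and the adjusted p-value of 0.0946 missed the threshold in edgeR. Without Gpnmb+ pool 1 the log2 fold change was 2.36 and Zic1 was called (adjusted p = 0.0194), and without Gpnmb+ pool 2 it was 1.19 (adjusted p = 0.107). Among the alternatives its adjusted p-value lay between 1.51e-05 with DESeq2 and 0.225 without DBA/2J pool 3.

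Scaled by length to TPM (counts per length and library size, over the union of annotated exons), Zic1 and Pax6 were the most abundant members in DBA/2J, at 105 ± 13.1 and 104 ± 14.6 TPM (SD, n = 3). Six3, Lhx2 and Otx2 followed at 52.9 ± 10.02, 52.1 ± 12.2 and 49.1 ± 14.4 TPM and could not be ordered beyond their spread, and the pools of Six6, at 36.4 ± 7.15 TPM, overlapped those of Otx2. Rax had 22.3 ± 6.20 TPM, Sox2 7.46 ± 0.475 TPM and Sox3 1.95 ± 0.653 TPM, each with no pool in the range of its neighbours in this order. In Gpnmb+ the order differed. Pax6 stood first at 89.5 ± 8.90 TPM (SD, n = 2) and Otx2 second at 55.7 ± 11.05 TPM. Zic1 at 34.1 ± 18.7 TPM spanned the ranges of Six3 at 32.6 ± 1.65 TPM and Lhx2 at 25.6 ± 5.55 TPM. Rax and Six6 overlapped at 12.7 ± 0.885 and 11.02 ± 1.90 TPM. Sox2 and Sox3 were again last, at 3.63 ± 0.257 and 0.204 ± 0.00349 TPM. With the length of the canonical transcript, an alternative chosen after seeing the data, Pax6 came first in both genotypes, at 177 and 152 TPM, since its union of exons (16047 bases) is longer than its canonical transcript (5813 bases), and Zic1 fell to 66.0 and 21.3 TPM. Rax then stood above Six6 in DBA/2J, at 31.2 against 22.4 TPM, and Sox2 and Sox3 were at 4.60 and 1.20 TPM, so the order of Rax and Six6 there depends on the length used.

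**Figure D2:**
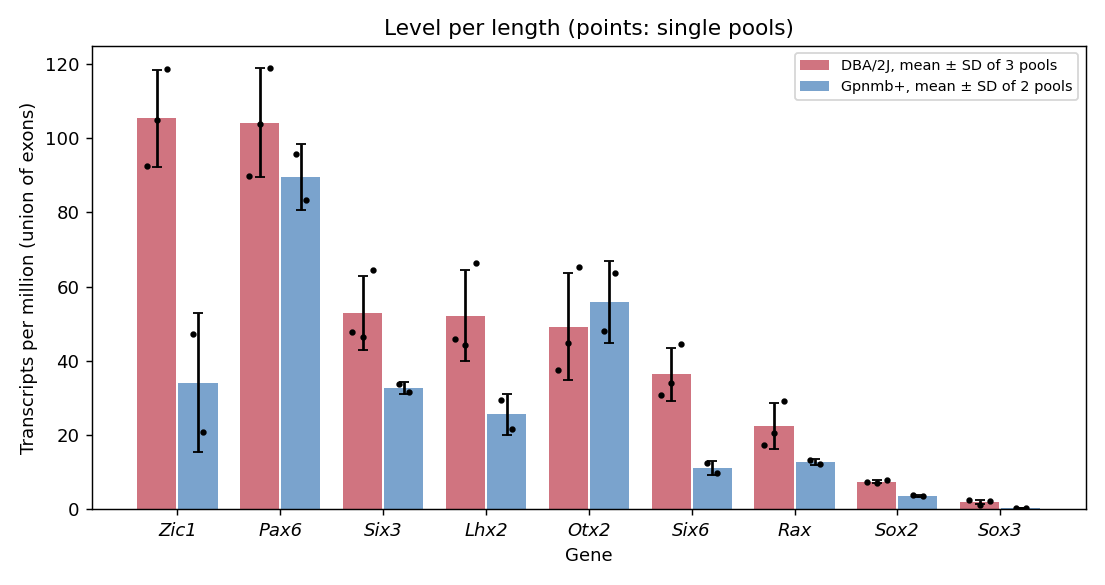
Mean level per length of each member in TPM over the union of exons, with SD as error bars and single pools as points (DBA/2J red, n = 3; Gpnmb+ blue, n = 2). Zic1 and Pax6 are level at 105 and 104 TPM in DBA/2J and stand at 34.1 and 89.5 TPM in Gpnmb+.

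The members also differed in how the pools were ordered. Over the 5 pools, with log2 CPM centred on the mean of the group means, Six3 and Rax were the most alike pair, with a root mean square difference of 0.12 on the log2 scale, followed by Lhx2 with Sox2 at 0.18 and Rax with Lhx2 at 0.18. Six6 was 0.27 from Zic1, and Otx2 and Sox3 were farthest apart at 1.54. Among 15908 protein-coding genes, the pattern of Six6 was closest to Iyd, Usp51 and Zic5 (differences 0.07 to 0.11) and that of Zic1 to Clec18a, Cntn1 and Zic4 (0.06 for each). Six3 was closest to Ksr2, Armcx6 and Nmnat2, Rax to Rgs6, Hey2 and Lrrc74b, and Lhx2 to Stac, Luzp2 and Sema5b. Pax6 was nearest to Prxl2a, Cnnm3 and Nynrin, Otx2 to Cadm3, Sntg2 and Dlgap3, and Sox2 to Efnb3, Amph and Il33. No gene came near Sox3, whose closest, C1qtnf3, F7 and Cdhr5, differed by 0.32 to 0.35. Sox3 had only 56, 27 and 46 counts in DBA/2J and 5 in each Gpnmb+ pool, and Cdhr5 had 10, 6 and 6 and then 0. How far such low counts set the distances of Sox3 was not tested. These likenesses rest on 5 pools and describe them only.

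Zic1 and Zic4 lie beside each other on chromosome 9, transcribed in opposite directions, with 172 bases of shared exonic sequence. Zic4 had 1305, 1598 and 1610 counts in DBA/2J, compared with 712 and 319 in Gpnmb+ (log2 fold change 1.73, adjusted p = 0.0858 by edgeR), with the same low Gpnmb+ pool 2. The strand setting of the counting is not given in the sources used here, so reads of overlapping genes on opposite strands could be assigned to either. Of 43 genes annotated over a member or within 10 kb of one, 31 were in the table, 15 had at least 10 counts in a pool, and 11 of those overlapped a member.

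Antisense and overlapping transcripts were compared with their member. Six3os1, antisense to Six3, had 1916, 1753 and 2342 counts in DBA/2J, compared with 1855 and 1452 in Gpnmb+, and DBA/2J pool 2 lay below Gpnmb+ pool 1 before scaling. After scaling every DBA/2J pool was higher, with a log2 fold change of 0.46 (adjusted p = 0.231 by edgeR). Otx2os1 had 140, 160 and 194 counts in DBA/2J, compared with 192 and 254 in Gpnmb+, with Gpnmb+ pool 2 the highest, as for Otx2. Elp4, a subunit of the elongator complex whose exons share 3393 bases with those of Pax6, had 1444, 1336 and 1406 counts in DBA/2J, compared with 1151 and 921 in Gpnmb+ (log2 fold change 0.61, adjusted p = 0.0807 by edgeR), while Pax6os1 had 287, 388 and 383 counts in DBA/2J, compared with 317 and 294 in Gpnmb+. The order of the pools in Elp4 was thus unlike that of Pax6. Near Six6, the noncoding gene Gm26709, 908 bases downstream on the same strand, had 60, 60 and 55 counts in DBA/2J, compared with 22 and 17 in Gpnmb+ (log2 fold change 1.76, adjusted p = 0.0613 by edgeR) beside the 1.74 of Six6. The protein-coding gene 4930447C04Rik, on the strand opposite Six6, had 61, 67 and 72 counts in DBA/2J, compared with 51 and 37 in Gpnmb+. Both genes beside Six6 were higher in every DBA/2J pool. Gm28528, opposite Six3, had 34 to 49 counts in DBA/2J, compared with 22 to 27 in Gpnmb+, and A730094K22Rik, 7105 bases from Zic1, had 59 to 86 and 12 to 22 counts. Sox2ot, within which Sox2 lies, was rare, with 18 to 23 counts in DBA/2J, compared with 14 and 26 in Gpnmb+, and Raxos1 had 50, 51 and 91 counts against 60 and 40. Gm14662, antisense to Sox3, was below the count minimum with 1 to 6 counts in DBA/2J and 0 in Gpnmb+. The other neighbours past the minimum, Paupar, Gm57419, Gm49154 and Gm55785, had at most 85 counts in any pool.

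Other transcription factors of the optic cup and retina were described from a list of 35, of which 31 were tested. Of these, 2 were called higher by edgeR and 7 by DESeq2, against 0.502% of all genes and 3.06% of genes with an adjusted p-value. With p up to 0.05 before adjustment and 1.5-fold, 8 were higher, against 4.2% of all genes. Both tools called 0 lower, as did the unadjusted p-values, and 14 were higher and 2 lower in every DBA/2J pool, against 17.3% and 17.2% of all genes. Their median log2 fold change was 0.24, beside 1.04 over the members. Zic5, one of the 3 genes closest to Six6 in pattern, had 1071, 1147 and 1525 counts in DBA/2J, compared with 524 and 320 in Gpnmb+ (log2 fold change 1.75, adjusted p = 0.0501 by edgeR). Zic2, named after its values were seen, had 2784, 2997 and 3751 counts in DBA/2J, compared with 1579 and 876 in Gpnmb+ (log2 fold change 1.56, adjusted p = 0.0662 by edgeR). In Zic2, Zic4 and Zic5, as in Zic1, every DBA/2J pool was higher and Gpnmb+ pool 2 was the lowest. Nr2f2, a nuclear receptor and the most abundant of the list, had a mean of 107 CPM in DBA/2J and 139 CPM in Gpnmb+ (log2 fold change -0.38, adjusted p = 0.171 by edgeR).

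**Figure D3:**
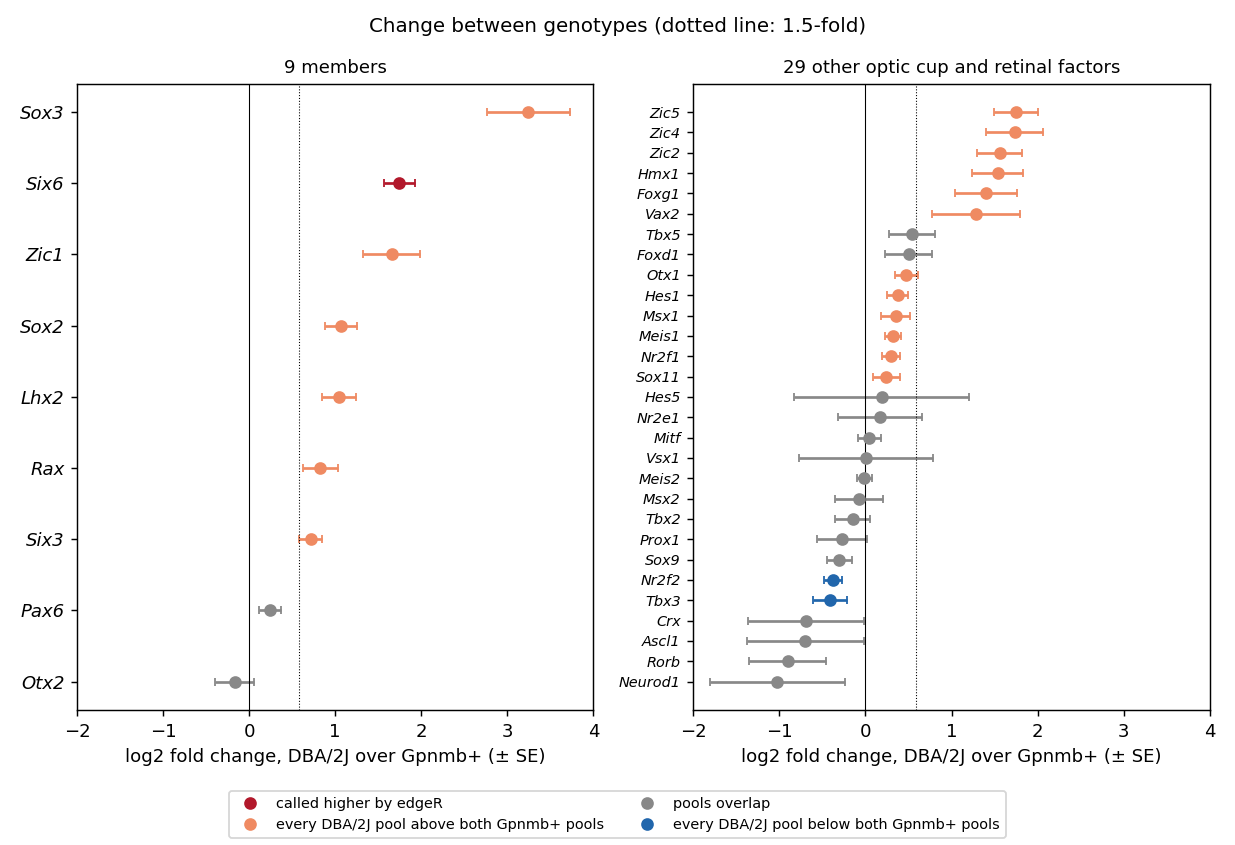
Fitted log2 fold change of the 9 members (left) and 29 of the other tested optic cup and retinal factors (right), DBA/2J over Gpnmb+, with the standard error as bars and a dotted line at 1.5-fold. Dark red marks the gene called by edgeR (Six6), orange those higher in every DBA/2J pool, blue those lower in every DBA/2J pool and grey those that overlap.

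None of the 15 partners of SIX3 and SIX6 was called by edgeR. DESeq2 called 2 of them higher, against 3.06% of genes with an adjusted p-value. With p up to 0.05 before adjustment and 1.5-fold, 2 were higher and 1 lower, against 4.2% and 4.48% of all genes. Over the 15 partners the median log2 fold change was -0.04. The Groucho family genes Tle5 and Tle3 had log2 fold changes of -0.04 and -0.24, and Dach1, a corepressor of the network, 0.80 (adjusted p = 0.164 by edgeR). Eya1, named after its values were seen, had 2229, 2085 and 2455 counts in DBA/2J, compared with 1697 and 1130 in Gpnmb+ (log2 fold change 0.86, adjusted p = 0.0884 by edgeR). Six4, which lies near Six6 on chromosome 12 and was also named after its values were seen, was at 0.18, beside the 1.74 of Six6. None of the 7 LIM domain cofactors was called by edgeR either, and DESeq2 called 0. None of them was higher and 1 was lower with p up to 0.05 before adjustment and 1.5-fold, against 4.2% and 4.48% of all genes. Rlim, Lmo4 and Ldb1 had log2 fold changes of 0.06, -0.46 and -0.09, while Lmo3, named after its values were seen, was at -1.65. Lmo3 was rare, with 10, 9 and 6 counts in DBA/2J, compared with 32 and 28 in Gpnmb+ (adjusted p = 0.118 by edgeR). Of 13 signals of the ciliary margin, Bmp4, a ligand required for ciliary body formation, was called higher by edgeR, and none was called lower. Over all genes those shares were 0.502% and 0.294%. DESeq2 called 1 higher and 1 lower, against 3.06% and 2.15% of genes with an adjusted p-value. With p up to 0.05 before adjustment and 1.5-fold, 2 were higher and 1 lower, against 4.2% and 4.48% of all genes. Bmp4 had 2639, 2581 and 2860 counts in DBA/2J, compared with 1804 and 1419 in Gpnmb+ (log2 fold change 0.92, SE 0.11, adjusted p = 0.0379 by edgeR). The connexin gene Gja1 and the Wnt inhibitor gene Sfrp1, the most abundant of the list, were at 0.42 and 0.21 with adjusted p-values of 0.315 and 0.479. Hey1, a Notch target named after its values were seen, had 391, 340 and 452 counts in DBA/2J, compared with 730 and 674 in Gpnmb+ (log2 fold change -0.65, adjusted p = 0.111 by edgeR).

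The inner, nonpigmented layer of the ciliary epithelium, which secretes aqueous humor, was followed by its markers. All 10 had a positive log2 fold change, and 9 were higher in every DBA/2J pool, against 17.3% of all genes. Col9a1, Col9a2 and Mlc1 were called higher by edgeR (0.502% of all genes), with log2 fold changes of 2.06, 2.38 and 2.07. DESeq2 called 7 of the 10 higher, against 3.06% of genes with an adjusted p-value. The summed level of the 10 markers was 1760 to 2151 CPM in DBA/2J and 765 to 1236 CPM in Gpnmb+. It was lower in Gpnmb+ pool 2, and no marker was at 0 in any pool. Ptgds, a prostaglandin synthase also made in other ocular tissues, took 38.2% of the sum and differed little, with a log2 fold change of 0.17. The part of this tissue in the differences of the members was not tested.

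To set each member beside that tissue, the log2 of the summed marker level was subtracted from the member's log2 CPM in each pool. The marker sum itself was 1.01 higher on the log2 scale in DBA/2J. On this scale Sox3, Zic1 and Six6 stayed higher in every DBA/2J pool, by 1.76, 0.76 and 0.73. Lhx2 and Sox2 were level, with differences of 0.04 for each, and Six3 and Rax overlapped at -0.30 and -0.21. Pax6 and Otx2 were lower in every DBA/2J pool, at -0.77 and -1.19. Without Ptgds, an alternative chosen after seeing the data, the marker sum differed by 1.61 and Sox3 alone stayed higher, at 1.16. Six6 and Zic1 then overlapped between the genotypes at 0.12 and 0.15, and the other 6 members were lower in every DBA/2J pool, from -0.57 for Lhx2 and Sox2 to -1.80 for Otx2. These differences were not tested. Of the markers left without Ptgds, Optc, named after its values were seen, had the highest mean in DBA/2J. It stood at 603 CPM there against 125 CPM in Gpnmb+ (log2 fold change 2.27). A sum without Optc was not taken, so how far the values without Ptgds rest on Optc was not tested.

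**Figure D4:**
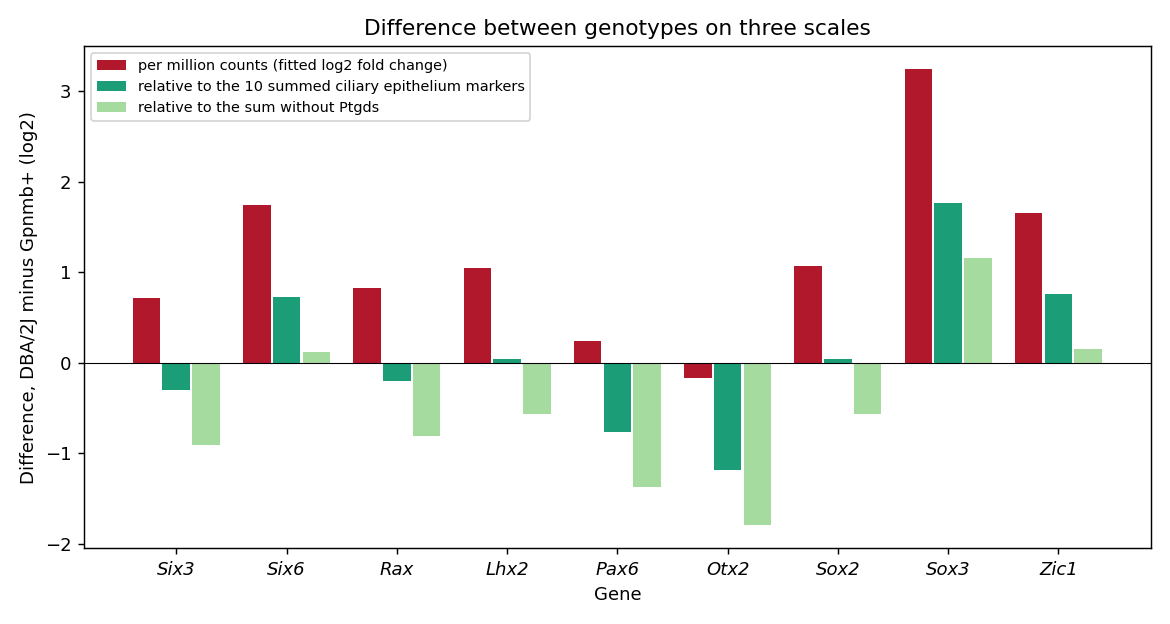
Difference between the genotypes (DBA/2J minus Gpnmb+, log2) of each member in CPM (red), relative to the summed level of 10 nonpigmented ciliary epithelium markers (green) and relative to that sum without Ptgds (light green); bars are fitted fold changes or differences of group means. Sox3 stays above 0 on all scales by over 1, and Six6 and Zic1 fall from 1.74 and 1.65 to 0.12 and 0.15.

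The 2 Gpnmb+ pools differed from each other in their tissue markers. The 12 photoreceptor markers summed to 386 CPM in Gpnmb+ pool 1 and 2085 CPM in pool 2, against 630 to 922 CPM in DBA/2J, with Gnat1 and Sag at log2 fold changes of -0.79 and -0.86. The 6 markers of the retinal pigment epithelium summed to 458 and 1058 CPM in Gpnmb+ and to 218 to 380 CPM in DBA/2J, and 5 of 6 had a negative log2 fold change, Ttr and Rgr at -1.40 and -1.63 and Rlbp1 at -0.20. No gene of either list was called by edgeR or at 0 in any pool. DESeq2 called 2 markers of the retinal pigment epithelium lower, against 2.15% of genes with an adjusted p-value. Before adjustment, 4 markers of the retinal pigment epithelium and 0 photoreceptor markers were lower at 1.5-fold, against 4.48% of all genes. Otx2 was the member that was higher in Gpnmb+ pool 2 than in pool 1, by 0.43 on the log2 scale, together with Sox3 by 0.04. Six3, Rax, Sox2 and Sox3 differed by at most 0.12 between the Gpnmb+ pools, Pax6 by 0.19, Six6 by 0.33, Lhx2 by 0.43 and Zic1 by 1.17. The median gap of the nonpigmented ciliary epithelium markers was 0.77 in the same direction as Zic1. The part of retinal tissue in the Otx2 values was not tested.

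**Figure D5:**
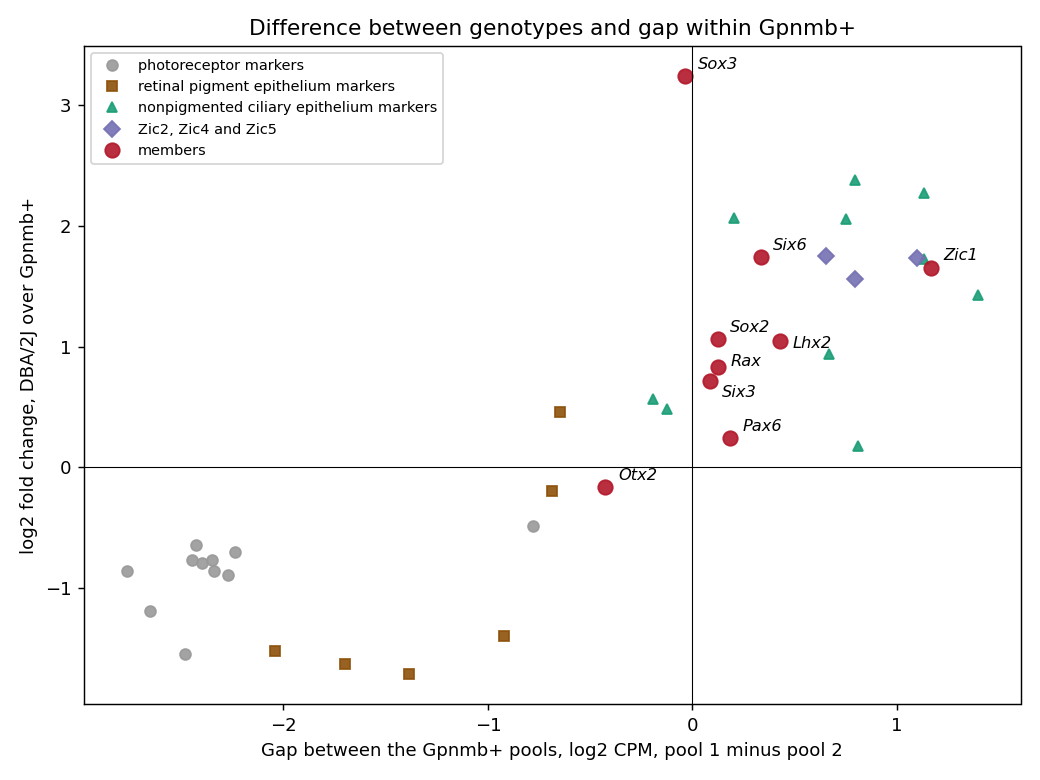
Fitted log2 fold change between genotypes (vertical) against the gap between the Gpnmb+ pools (horizontal, log2 CPM, pool 1 minus pool 2) for the 9 members, Zic2, Zic4 and Zic5, and markers of 3 tissues. Zic1 lies at a gap of 1.17 beside ciliary epithelium markers, Sox3 at -0.04 with a fold change of 3.24, and Otx2 at -0.43 towards the markers of photoreceptors and retinal pigment epithelium.

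Other tissues of the angle were described from further marker lists. Of 8 pigment cell genes, 6 had a negative log2 fold change, 4 were lower in every DBA/2J pool (17.2% of all genes) and 2 were lower before adjustment at 1.5-fold (4.48% of all genes). The transporter gene Slc45a2 was called lower by edgeR (log2 fold change -2.46), against 0.294% of all genes. DESeq2 called 2 of the 8 lower, against 2.15% of genes with an adjusted p-value. Dct and Trpm1, the most abundant, were at -0.07 and 0.00015. Pmel and Slc24a5, named after their values were seen, were at -0.77 and -0.52 with adjusted p-values of 0.164 and 0.184 by edgeR. Of 8 Schwann cell genes, 7 had a negative log2 fold change, 2 were called lower by edgeR (0.294% of all genes) and 4 by DESeq2 (2.15%), S100b was called at -2.04, and Pmp22 was at 0.17. No gene of the inner retinal neurons, lens, corneal epithelium, conjunctiva or trabecular meshwork was called by edgeR. With p up to 0.05 before adjustment and 1.5-fold those lists held 1, 1, 0, 1 and 0 higher genes, against 4.2% of all genes. They held 0, 0, 1, 0 and 1 lower genes, against 4.48% of all genes. DESeq2 called 1 gene of the inner retinal neurons higher (3.06% of genes with an adjusted p-value) and 1 of the trabecular meshwork lower (2.15%). The summed lens markers reached at most 22.0 CPM in any pool, Lim2 had no count in any of them, and Bfsp2 made up 75.0% of the sum and had a log2 fold change of 0.17, with Bfsp1 and Cryaa at 0.23 each. Slc6a9 made up 90.5% of the summed markers of inner retinal neurons and had a log2 fold change of 0.93, while Gad1 and Cabp5 were at -0.09 and -0.27. In the corneal epithelium Krt5, Aldh3a1 and Dsp were at -0.13, -0.70 and -0.41 and Krt12 at -3.16, and in the conjunctiva Krt13 and Krt4 were at 0.20 and 0.13. Muc5ac of the conjunctiva had 8174 counts in DBA/2J pool 1 and 147 to 893 in the other pools. The trabecular meshwork genes Dcn, Fmod and Mgp were at -0.44, 0.57 and -0.06, and Myoc, named after its values were seen, at -1.06.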

How the data were processed

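RNA from 5 pools of iridocorneal tissue (3 DBA/2J, 2 Gpnmb+) was sequenced by the authors as poly(A) libraries. Per the submitters' notes and the study's methods, reads were trimmed with fastp and aligned with STAR to GRCm39 (Ensembl annotation), and the authors deposited, without normalization, the counts of reads with a single alignment, summed for each gene. The strand used in counting is not given in the sources used here. The pools were made from different mice.

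Counts were scaled by TMM and tested with edgeR 4.0.16 (quasi-likelihood, no covariate, R 4.3.3) on the genes that reached 10 counts in 1 pool or more, with Benjamini-Hochberg adjustment over 19713 genes. Calls needed an adjusted p of at most 0.05 and a 1.5-fold change. Limma 3.58.1 and DESeq2 1.42.0 were alternatives. An exact permutation test, two-sided, of 3 pools against 2 cannot give less than p = 0.2, so p-values come from the fit over all genes. Log2 CPM used a prior count of 2, and the common biological coefficient of variation was 20.7%. Names, lengths and start sites came from GENCODE M39. Tables and figures were made in Python 3.11.15.

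Members and gene lists were chosen with earlier results of these data known. Named were all members, the called genes of each list and otherwise its most abundant genes up to 3, genes over or within 10 kb of a member, the 3 genes closest in pattern to each member, Gpnmb and Xist. The Y-linked genes were added after seeing the data. A few listed genes are left unreported.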

Additional observations from a re-analysis of the deposited data

How the results depend on the processing

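The number of members called higher in DBA/2J was 1 in the fit reported and stayed at 1 with DESeq2's size factors in edgeR, limma-voom, filterByExpr and no fold change minimum. It was 7 with DESeq2, 7 with unadjusted p-values and 5 with no count filter (Six3, Six6, Lhx2, Sox3 and Zic1), and it ran from 0 to 2 with 1 pool left out. Without a Gpnmb+ pool, the lone Gpnmb+ pool was assumed to vary like the DBA/2J pools. No alternative called a member lower. The number of genes called over all genes was 157, against 927 with DESeq2 and 360 with no count filter. The direction reversed for Otx2 alone, to 0.062 without Gpnmb+ replicate 2, within a range of -0.38 to 0.062 over the fits with 1 pool left out. The cause of these shifts was not tested. The replicate number as a block gave 1 member called, Six6, and 220 genes over all. The numbers were not taken to pair the pools: the deviations of pools with the same number correlated at 0.28 and 0.25, over 2 pairs, and no label says that a number marks a shared batch. Counts of 5 per Gpnmb+ pool limit the precision of Sox3, and 2 Gpnmb+ pools limit every comparison.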
